A study of Tupaia belangeri chinensis with 12 samples.

Results

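The inner subventricular zone (ISVZ) of the fetal tree shrew cortex was compared with the ventricular zone (VZ) beneath it, by the layer given in the library titles: 3 ISVZ and 3 VZ libraries, which are 6 of 12 libraries. Laser capture cut both layers from Nissl-stained frozen sections of the cortex of Tupaia belangeri chinensis, the Chinese tree shrew, at embryonic day 37 by the labels, and poly(A) RNA was sequenced. The labels name no treatment and no genotype. The study concerns cortical folding. Its other 6 libraries are 3 of the outer zone (OSVZ) and 3 of the cortical plate (CP). They entered the model to estimate the spread and the replicate effects, and also the scaling of libraries and the filter on low levels. Levels in OSVZ are used again in the last comparison. The labels do not say how the layer borders were drawn, which limits how pure either group is known to be. Whether libraries 1 to 3 of either layer are different animals is not stated. The p-values therefore reflect only how these libraries vary, and that variation may be technical.

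In the developing mammalian cortex, radial glia line the ventricle with their cell bodies in the VZ, joined by apical junctions, bathed by the ventricular fluid and anchored by long fibres to the outer surface. Their daughters leave the ventricular surface as intermediate progenitors or outer radial glia, divide again in the subventricular zone, and produce neurons that migrate outward. Late in development, radial glia that stay behind give rise to astrocytes and to the multiciliated ependymal cells of the ventricle wall, while the choroid plexus, a separate secretory epithelium, floats in the ventricle.

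Expression is given as FPKM, which is per gene length and library size, divided by 1 scaling factor per library, and called scaled FPKM. Summed FPKM was 259429 to 270562 in the ISVZ libraries and 250116 to 276661 in the VZ libraries. Read totals are unknown, and relative depth, estimated from how wide the deposited FPKM bounds are, was 0.78 to 1.203 in ISVZ and 0.68 to 1.29 in VZ, so VZ 1 was the shallowest library. The layer markers did not all separate the layers. EOMES, the transcription factor of intermediate progenitors, held 74.7, 31.9 and 56.6 scaled FPKM in ISVZ 1 to 3, against 66.8, 41.9 and 63.1 in VZ 1 to 3. PAX6, a transcription factor of radial glia, held 27.5, 12.7 and 18.6 scaled FPKM in ISVZ 1 to 3, against 28.6, 21.1 and 35.98 in VZ 1 to 3. The ranges of both genes overlapped between the layers. The pair of libraries numbered 2 stood apart: 1042 genes were at least 2-fold lower and 324 at least 2-fold higher in ISVZ 2 than in VZ 2, against 537 and 250 in pair 1 and 518 and 139 in pair 3. VZ 2 also held the most choroid plexus RNA, given with the cilia below, and the part of this library in the differences is therefore shown by values without it.

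Far more genes were lower than higher in ISVZ, and the lower ones differed by more. Of 14101 genes tested, the limma model called 1588 (11.3%) different at an adjusted p under 0.05, 371 (2.63%) higher and 1217 (8.63%) lower in ISVZ. The 3 ISVZ and 3 VZ libraries did not overlap for 3999 genes (28.4%), 1559 higher (11.1%) and 2440 lower (17.3%). At least 2-fold were 38 of the higher genes (0.269%) and 451 of the lower (3.2%). The median called gene differed by 0.59 log2 units when higher and -0.85 when lower, while the median over all genes tested was -0.01. The filter on low levels adds to the imbalance: 620 genes passed it only through VZ (1 or more in fewer than 3 of the other 9 libraries). Such a selection favours genes lower in ISVZ, and 200 of the 1217 lower calls were among them. Only through ISVZ passed 267 genes, 1 of them called higher, and without the 620 there were 371 higher and 1017 lower calls. Quantile normalisation moved the split to 611 higher and 1023 lower, and the 6 ISVZ and VZ libraries alone gave 865 calls. Library 2 of each layer carried many of the calls: 378 genes were called without VZ 2, 455 without ISVZ 2 and 781 without VZ 3, while leaving out any of the other 9 libraries gave 1228 to 1735. Without VZ 1 and VZ 2 together 0 genes were called by limma (1580 at an unadjusted p under 0.05), with 1 VZ library left. In bulk RNA, fewer cells of a type and less RNA per cell cannot be told apart, so each difference below is one of RNA level in the captured layer. A number alone in parentheses after a gene is its log2 difference, ISVZ minus VZ.

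**Figure D1:**
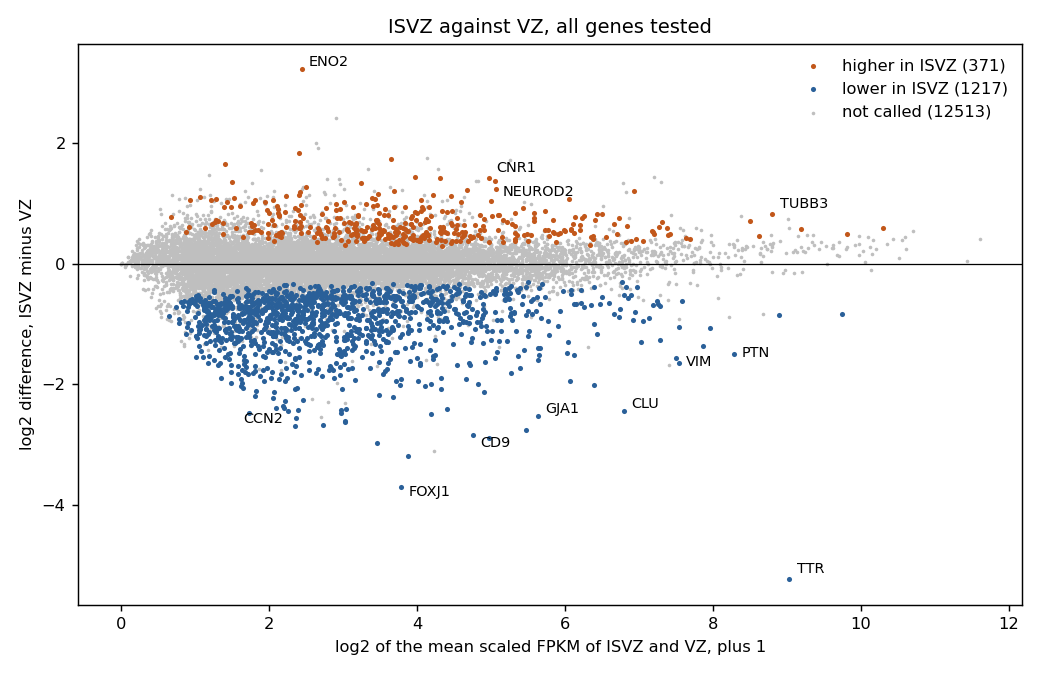
Each point is 1 of the genes tested, with the log2 of its mean level over the ISVZ and VZ libraries (scaled FPKM, plus 1) on the x axis and the log2 difference ISVZ minus VZ on the y axis. Called genes are coloured (371 higher, 1217 lower), and the lower ones reach further from 0, with TTR at -5.23 and FOXJ1 at -3.71, than the higher ones, most of which lie under 1.

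Described by 43 lists of genes with known roles (875 distinct genes tested, 71 of them in 2 or more lists), the calls fell in groups. Lists of newborn neurons and of synapses and axons held only higher calls, and lists of upper and deep layers 1 higher call each. The subplate list held only lower calls and the interneuron list 0. Lists of intermediate progenitors and cell division held 1 or 0, and lists of radial glia, astrocytes, cilia, matrix and most signalling pathways held lower calls. Over all genes 11.3% were called, and of the signalling lists hedgehog (15.4%) and TGF-beta (16.7%) lay near that share. The BMP (23.5%), FGF (29.6%), Wnt (31.25%), Hippo (36.4%) and Notch (38.7%) lists lay further above it. Of the 875 genes, 32 were called higher and 228 lower.

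**Figure D2:**
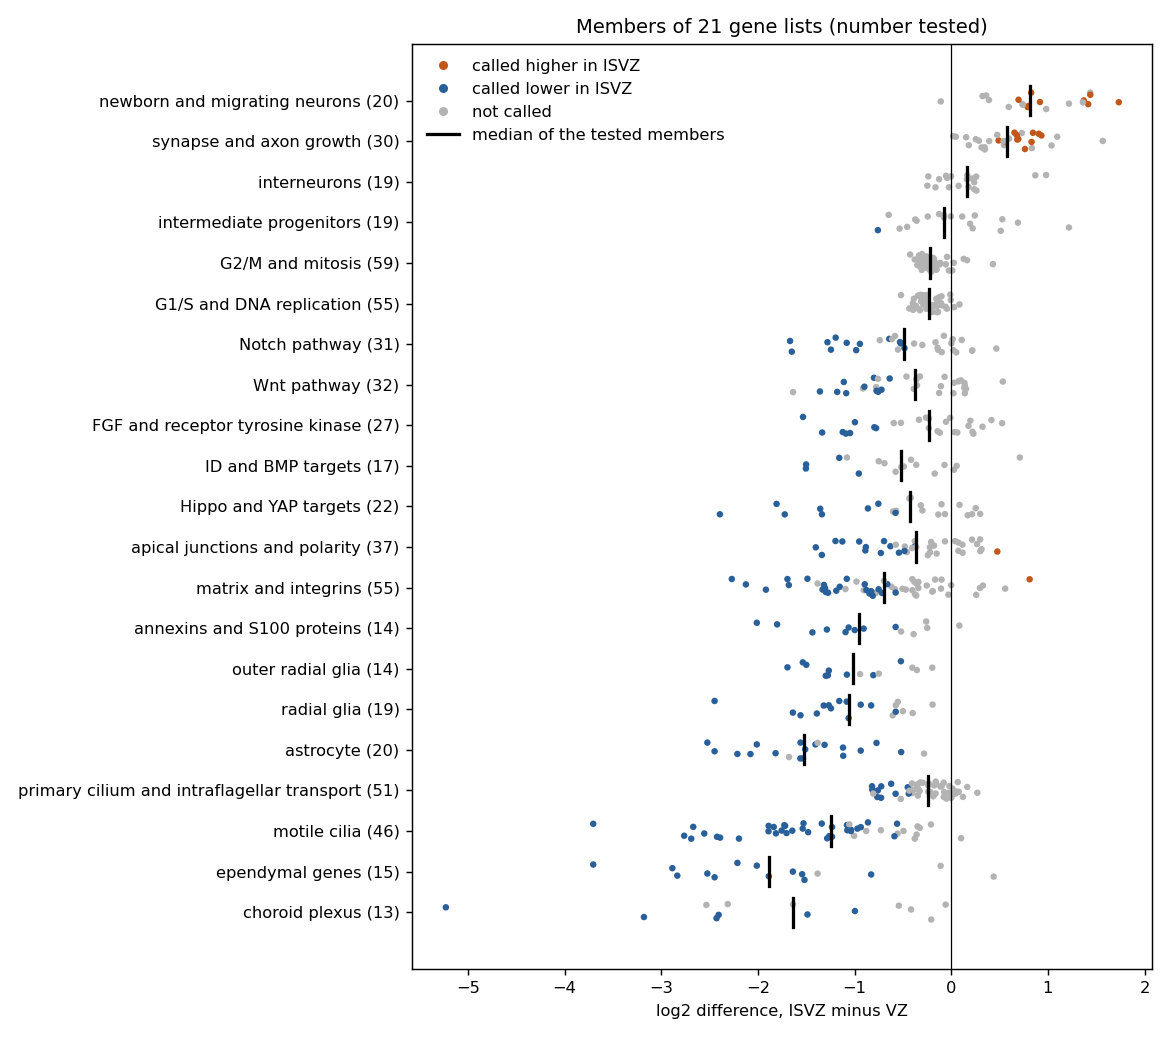
Each row is a gene list with the number of members tested, and each point is the log2 difference ISVZ minus VZ of 1 member; black bars mark medians. Newborn neuron genes centre at 0.81, intermediate progenitor and cell division genes between -0.23 and -0.07, and radial glia, astrocyte, motile cilia and ependymal genes at -1.06, -1.52, -1.25 and -1.89.

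Genes that mark young, migrating neurons were higher in ISVZ. Of 20 tested, 9 were called higher and 0 lower, and the median log2 difference was 0.81, against -0.01 over all genes. Their summed level was 2170, 2563 and 2053 in ISVZ 1 to 3, against 1650, 1182 and 1168 in VZ 1 to 3, without overlap. CNR1, the cannabinoid receptor that young projection neurons carry on their axons (TSDBGID.20424, chromosome 4, 76872220 to 76901396), held 71.03, 31.9 and 30.7 scaled FPKM in ISVZ 1 to 3, against 19.2, 7.58 and 21.8 in VZ 1 to 3. All ISVZ libraries lay above all VZ libraries, ISVZ 1 far above the other two, and the log2 difference was 1.42 ± 0.34 (SE, adjusted p = 0.0303). NEUROD2, a transcription factor of young excitatory neurons (TSDBGID.9856, chromosome 16, 67362705 to 67371457), held 77.7, 34.8 and 28.1 scaled FPKM in ISVZ 1 to 3, against 25.1, 7.32 and 20.8 in VZ 1 to 3, with ISVZ 1 again highest and VZ 2 lowest and a difference of 1.37 ± 0.35 (SE, adjusted p = 0.0351). TUBB3, the neuronal beta tubulin (TSDBGID.18630, chromosome 28, 14789407 to 14797862), held 422, 689 and 609 scaled FPKM in ISVZ 1 to 3, against 292, 327 and 331 in VZ 1 to 3. Here ISVZ 1 was the lowest ISVZ library, still above every VZ library, and the difference was 0.83 ± 0.14 (SE, adjusted p = 0.00802).

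The adaptor gene SLA (1.73), the netrin receptor gene UNC5D (1.44), the semaphorin receptor genes NRP1 (0.92) and PLXNA2 (0.70) and the neuronal transcription factor genes MYT1L (0.80) and PRDM8 (0.79) were the other calls. NRP1 held 14.7, 4.78 and 5.28 in ISVZ 1 to 3, against 4.09, 3 and 3.15 in VZ 1 to 3, with ISVZ 1 far above the rest, and the libraries of UNC5D overlapped. STMN2 and DCX, which encode microtubule proteins of migrating neurons, lay above VZ in all ISVZ libraries but missed the threshold, with differences of 0.74 ± 0.21 (SE, adjusted p = 0.0505) and 0.59 ± 0.17 (SE, adjusted p = 0.0523). NEUROD6, a relative of NEUROD2, also did not overlap, at 306, 158 and 154 in ISVZ 1 to 3, against 142, 26.4 and 95.7 in VZ 1 to 3 (log2 difference 1.44 ± 0.43 SE, adjusted p = 0.0624). Without VZ 2 the list held 0 calls and a median of 0.70, without ISVZ 2 3, without another library 6 to 9, and 4 without the replicate block.

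Synapse and axon genes were also called only in the higher direction. Of 30 tested, 11 were called higher and 0 lower, with a median of 0.58. GRIA2, an AMPA receptor subunit gene, held 20.3, 14.9 and 12.3 scaled FPKM in ISVZ 1 to 3, against 9.67, 5.47 and 8.37 in VZ 1 to 3, which did not overlap (log2 difference 0.93 ± 0.23 SE, adjusted p = 0.0297). L1CAM, a cell adhesion molecule of growing axons, held 20.2, 11.2 and 12.2 scaled FPKM in ISVZ 1 to 3, against 7.89, 5.08 and 8.59 in VZ 1 to 3, again with ISVZ 1 highest and no overlap (log2 difference 0.91 ± 0.16 SE, adjusted p = 0.00895). SYT1, the calcium sensor of synaptic vesicle release, differed by 0.85 ± 0.22 (SE, adjusted p = 0.0394). CNTN2, an adhesion molecule of axons, differed by 0.83 ± 0.18 (SE, adjusted p = 0.0187), though its libraries overlapped. The remaining calls were TAGLN3, the neurofilament gene NEFM, RTN1, the guidance receptor gene ROBO2, the stathmin genes STMN4 and STMN3 and MAP2, between 0.49 and 0.76. Without VZ 2 this list held 0 calls and a median of 0.55, without ISVZ 2 1, without VZ 3 3, without ISVZ 1 4, without VZ 1 7, and 6 each without CP 1 and CP 2. It held 5 without the replicate block and 3 with the 6 ISVZ and VZ libraries alone.

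Lists of genes that mark the later layer fate of neurons held 1 call each. That is 7.14% of the upper-layer and 6.25% of the deep-layer members, against 11.3% of all genes tested. Of 14 upper-layer genes only PLXNA4, a semaphorin receptor gene, was called, at 1.02 ± 0.24 (SE, adjusted p = 0.0283), and of 16 deep-layer genes only TBR1, a factor of early-born neurons, at 1.21 ± 0.29 (SE, adjusted p = 0.0283). TBR1 held 18.5, 16.4 and 14.8 scaled FPKM in ISVZ 1 to 3, against 11.1, 3.43 and 7.18 in VZ 1 to 3, but its annotated gene overlaps other genes, PSMD14 at 41.6 among them, so its level is uncertain. The medians were 0.15 and 0.16, and without VZ 2 or ISVZ 2 both lists held 0 calls. The upper-layer list also held 0 without VZ 1 and 3 without VZ 3, and the deep-layer list 0 without VZ 3, 3 without CP 3 and 2 each without ISVZ 3 and OSVZ 3. Without the replicate block the upper-layer list held 0, and with quantile normalisation the deep-layer list held 2.

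Intermediate progenitor genes did not separate the layers. Of 19 tested, 0 were called higher and 1 lower, with a median of -0.07, 8 members above 0 and 11 below. The summed level was 804, 718 and 935 in ISVZ 1 to 3, against 879, 780.5 and 699 in VZ 1 to 3, which overlap. The call was SMOC1, a secreted matrix protein (log2 difference -0.76 ± 0.16 SE, adjusted p = 0.0197), which lost its call without VZ 2, VZ 3, ISVZ 2 or ISVZ 3. The list held 4 calls without VZ 1 and 0 each without VZ 2, VZ 3 and ISVZ 2 and with the 6 ISVZ and VZ libraries alone. INSM1, a zinc finger factor that promotes basal progenitors in mouse, held 183, 103 and 128 scaled FPKM in ISVZ 1 to 3, against 138, 103 and 112 in VZ 1 to 3. HES6, an antagonist of HES1, held 199, 218 and 301 scaled FPKM in ISVZ 1 to 3, against 218, 250.5 and 188 in VZ 1 to 3. Neither separated the layers, with differences of 0.20 ± 0.15 (SE, adjusted p = 0.441) and 0.11 ± 0.20 (SE, adjusted p = 0.765).

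Genes of the cell cycle were also not called. Of 55 genes of G1/S and DNA replication, limma called 0 (5 at an unadjusted p under 0.05, the 5 lower), and of 59 of G2/M and mitosis 0 (2 lower). Their medians were -0.23 and -0.22, and 53 of 55 and 54 of 59 members lay below 0. Quantile normalisation gave 50 and 52 below 0, with medians of -0.15 and -0.17. Summed G2/M genes were at 1042, 925 and 1482 in ISVZ 1 to 3, against 1226, 1262 and 1420 in VZ 1 to 3. ISVZ 3 held more of this RNA than any VZ library, and ISVZ 1 and ISVZ 2 held less. TOP2A, the topoisomerase of dividing cells, followed that order at 79.4, 67.3 and 123 in ISVZ 1 to 3, against 105, 94.4 and 111 in VZ 1 to 3. Without ISVZ 3, 3 members of each list were called, without VZ 1, 2 of the G1/S list, and without CP 3 or with quantile normalisation, 1 of the G2/M list.

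**Figure D3:**
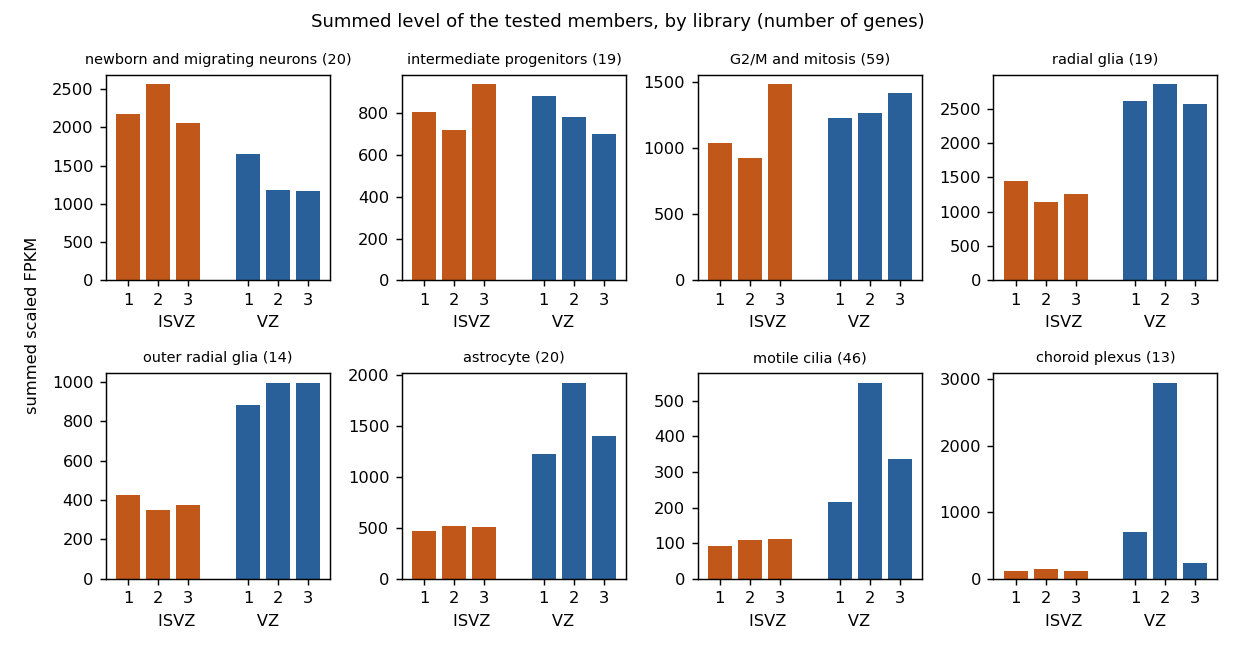
Bars give the summed scaled FPKM of the tested members of 8 lists in ISVZ 1 to 3 (left, orange) and VZ 1 to 3 (right, blue), each panel on its own axis from 0. The layers do not overlap for newborn neurons, radial glia, outer radial glia, astrocytes, motile cilia and choroid plexus, overlap for intermediate progenitors and mitosis, and the choroid plexus sum is highest in VZ 2.

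Radial glia genes were lower in ISVZ, though still well expressed there. All 19 tested lay below 0, 13 were called lower, and the median was -1.06. The summed level was 1445, 1135 and 1260 in ISVZ 1 to 3, against 2617, 2854 and 2572 in VZ 1 to 3. VIM, the intermediate filament of radial glia (TSDBGID.13672, chromosome 2, 21505161 to 21521088), held 88.7, 62.3 and 123 scaled FPKM in ISVZ 1 to 3, against 232, 293 and 310.1 in VZ 1 to 3. All VZ libraries lay well above all ISVZ libraries, with a difference of -1.64 ± 0.23 (SE, adjusted p = 0.00428). CLU, a secreted chaperone (TSDBGID.14659, chromosome 20, 12984063 to 13005916), held 26.6, 33.6 and 36.7 scaled FPKM in ISVZ 1 to 3, against 123, 264 and 178 in VZ 1 to 3, with no overlap and a difference of -2.45 ± 0.20 (SE, adjusted p = 0.00195). SLC1A3, the glutamate transporter of radial glia, held 114, 73.6 and 87.5 scaled FPKM in ISVZ 1 to 3, against 255, 275 and 273 in VZ 1 to 3 (log2 difference -1.56 ± 0.27 SE, adjusted p = 0.00801), and its annotated gene overlaps an antisense transcript at 104, so part of its level is uncertain.

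Among radial glia transcription factors, NR2E1, which keeps neural progenitors dividing in mouse, differed by -1.32 ± 0.13 (SE, adjusted p = 0.00195) and SOX9 by -0.94 ± 0.17 (SE, adjusted p = 0.00887). SOX2, the general neural progenitor factor, held 70.8, 126 and 122 scaled FPKM in ISVZ 1 to 3, against 156, 158 and 156 in VZ 1 to 3, lower in all ISVZ libraries without passing (log2 difference -0.61 ± 0.21 SE, adjusted p = 0.105). LHX2, which sets cortical identity, overlapped at 74.1, 27.3 and 33.6 in ISVZ 1 to 3, against 53.3, 46.7 and 64.2 in VZ 1 to 3. FABP7, a fatty acid binding protein of radial glia, is listed at 0 in all 6 libraries. VIM, CLU and SLC1A3 kept their calls without each of the 12 libraries in turn, while the list fell to 5 calls without VZ 2, 6 without ISVZ 2 and 8 without VZ 3, where the median without VZ 2 was -0.91.

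Genes used in other species to mark outer radial glia were also lower in ISVZ than in VZ. All 14 tested lay below 0, 9 were called and the median was -1.01, with a summed level of 425, 348 and 376 in ISVZ 1 to 3, against 884, 996 and 997 in VZ 1 to 3. PTN, a secreted growth factor, held 146, 164 and 177 scaled FPKM in ISVZ 1 to 3, against 406, 509.6 and 469 in VZ 1 to 3. The layers were far apart for it, at -1.50 ± 0.23 (SE, adjusted p = 0.00526). ITGB5, an integrin beta subunit gene (TSDBGID.3483, chromosome 1, 18319186 to 18452988), held 2.54, 1.91 and 2.42 scaled FPKM in ISVZ 1 to 3, against 6.998, 12.4 and 10.2 in VZ 1 to 3 (log2 difference -1.70 ± 0.21 SE, adjusted p = 0.00291). TNC, a matrix glycoprotein, differed by -1.30 ± 0.25 (SE, adjusted p = 0.0118), and SLCO1C1, a thyroid hormone transporter gene, by -1.54 ± 0.30 (SE, adjusted p = 0.0128). HOPX, the best known human marker of these cells, was low in both layers, at 2.92, 0.887 and 0.761 in ISVZ 1 to 3, against 3.23, 3.83 and 3.53 in VZ 1 to 3, and not called (log2 difference -0.94 ± 0.29 SE, adjusted p = 0.0707). SDC3, a syndecan gene, did not separate the layers (log2 difference -0.20 ± 0.22 SE, adjusted p = 0.613). PTN and ITGB5 kept their calls without each library, TNC lost its call without VZ 2 or ISVZ 2 and SLCO1C1 without VZ 3 or ISVZ 2. The list held 4 calls without VZ 2, 5 without ISVZ 2 and 5 without VZ 3, with a median of -0.98 without VZ 2.

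Notch signalling, in which ligands on one cell activate receptors on the next and so switch on HES repressors that hold radial glia undifferentiated, had lower receptor and target genes in ISVZ, while no ligand gene was called. Of 31 genes tested 12 were called lower and 0 higher, with a median of -0.48. Among receptors, NOTCH2 held 5.43, 2.76 and 4.18 scaled FPKM in ISVZ 1 to 3, against 9.57, 10.4 and 13.9 in VZ 1 to 3 (log2 difference -1.28 ± 0.19 SE, adjusted p = 0.00486), NOTCH1 differed by -0.64 ± 0.16 (SE, adjusted p = 0.0343) and NOTCH3, also a receptor of blood vessel mural cells, by -1.20 ± 0.20 (SE, adjusted p = 0.00739). Of the ligand genes, DLL1 held 11.5, 9.98 and 12.99 scaled FPKM in ISVZ 1 to 3, against 9.18, 11 and 11.5 in VZ 1 to 3. DLL3 held 4.23, 9.53 and 15.5 scaled FPKM in ISVZ 1 to 3, against 7.49, 14.1 and 8.97 in VZ 1 to 3, which overlap. JAG1 lay lower in all ISVZ libraries but missed the threshold (log2 difference -0.61 ± 0.17 SE, adjusted p = 0.05098). LFNG, the fringe enzyme that tunes ligand binding (TSDBGID.12808, chromosome 2, 42224825 to 42243083), held 13.3, 7.35 and 14.4 scaled FPKM in ISVZ 1 to 3, against 28.3, 41.4 and 44.9 in VZ 1 to 3. The layers did not overlap for it (log2 difference -1.65 ± 0.25 SE, adjusted p = 0.00486), whereas the related MFNG held 32.2, 32.3 and 46.9 in ISVZ 1 to 3, against 35.02, 46.2 and 35.5 in VZ 1 to 3 (log2 difference -0.08 ± 0.18 SE, adjusted p = 0.834).

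Target genes of the pathway were lower. HES4 (TSDBGID.2679, chromosome 13, 68711041 to 68728173) held 3.67, 1.77 and 3.32 scaled FPKM in ISVZ 1 to 3, against 10.4, 11.6 and 11.5 in VZ 1 to 3, the highest ISVZ library at less than the lowest VZ library (log2 difference -1.67 ± 0.18 SE, adjusted p = 0.00229). HES1, HES5, HEY1 and NRARP, a feedback inhibitor, differed by -1.25, -1.08, -0.98 and -0.95. NUMB, which lowers Notch activity, was lower as well, at -0.48 ± 0.12 (SE, adjusted p = 0.03299). Of the 7 HES and HEY genes tested, 4 were called lower. NOTCH2, LFNG and HES4 kept their calls without each library; HES1 lost it without VZ 2, VZ 3 or ISVZ 2, HES5 without those and ISVZ 1, and NOTCH3 without VZ 2. The list held 5 calls without VZ 2 and 6 each without ISVZ 2 and VZ 3.

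Genes of growth factor receptors were among the lower calls. Of 27 genes of FGF and related receptor tyrosine kinase signalling 8 were called lower, with a median of -0.23. The FGF receptor gene FGFR2 held 13.1, 9.82 and 12.3 scaled FPKM in ISVZ 1 to 3, against 28.4, 32.2 and 32.3 in VZ 1 to 3 (log2 difference -1.34 ± 0.15 SE, adjusted p = 0.00243). FGFR3 held 14.9, 6.76 and 4.97 scaled FPKM in ISVZ 1 to 3, against 27.6, 33.97 and 16.9 in VZ 1 to 3 (log2 difference -1.53 ± 0.22 SE, adjusted p = 0.00471). FGFR1 (-1.05), and the FGF-induced genes ETV5 (-1.12), SPRY2 (-0.80) and SPRED1 (-0.78), which feed back on the pathway, were called too, as was PDGFRB, a receptor also found on pericytes (-1.09). ERBB4, a neuregulin receptor gene of interneurons, varied within ISVZ at 11.2, 30.6 and 10.8 in ISVZ 1 to 3, against 18.2, 14.5 and 9.55 in VZ 1 to 3. FGFR2 and FGFR3 kept their calls without each library; the list held 2 calls each without VZ 2 and ISVZ 2, 3 without VZ 3, and 5 each without ISVZ 3 and OSVZ 1.

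Wnt signalling showed lower receptors and regulators, with 10 of 32 genes called lower and a median of -0.37. The Frizzled receptor gene FZD8 held 6.75, 3.17 and 4.84 scaled FPKM in ISVZ 1 to 3, against 11.6, 10.2 and 14.6 in VZ 1 to 3 (log2 difference -1.18 ± 0.19 SE, adjusted p = 0.00602). FZD5 held 0.185, 0.362 and 1.24 scaled FPKM in ISVZ 1 to 3, against 1.92, 1.97 and 2.99 in VZ 1 to 3 (log2 difference -1.09 ± 0.18 SE, adjusted p = 0.00741), but it and FZD6 passed the filter only through VZ, which favours lower genes. FZD8 and FZD5 kept their calls without each library, while FZD6 (-1.36) and DKK3, a Dickkopf family gene (-1.11), lost theirs without 7 and 5 of the libraries. The transcriptional partner genes TCF7L2 (-0.90) and TCF7L1 (-0.77) and the receptor genes LGR4 (-0.80) and FZD2 (-0.64) were also lower. CTNNB1, which encodes beta-catenin, did not separate the layers (log2 difference 0.07 ± 0.12 SE, adjusted p = 0.753). SFRP1, a secreted antagonist, lay lower in all ISVZ libraries at 169, 103 and 119 in ISVZ 1 to 3, against 244, 241 and 237 in VZ 1 to 3 without passing (log2 difference -0.91 ± 0.28 SE, adjusted p = 0.0662). The list held 3 calls each without VZ 2 and ISVZ 2, 5 each without VZ 3 and ISVZ 3, and 7 to 12 without any of the others. It held 5 without the replicate block and 6 with the 6 ISVZ and VZ libraries alone. Of the 32, 3 passed the filter only through VZ, 2 of them called, and the other 29 held 8 lower calls and a median of -0.36.

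In BMP signalling the inhibitor gene NOG held 2.96, 2.64 and 4.16 scaled FPKM in ISVZ 1 to 3, against 9.04, 12.6 and 11.4 in VZ 1 to 3, without overlap (log2 difference -1.50 ± 0.23 SE, adjusted p = 0.00495). The ligand gene BMP4 held 0.4997, 0.6097 and 0.778 scaled FPKM in ISVZ 1 to 3, against 2.296, 8.86 and 2.01 in VZ 1 to 3, with VZ 2 far above the rest (log2 difference -1.50 ± 0.33 SE, adjusted p = 0.0195), but it passed the filter only through VZ and fell below it without any VZ library. ID4 and ID1, repressors that BMPs induce, differed by -1.16 ± 0.18 (SE, adjusted p = 0.00582) and -0.96 ± 0.26 (SE, adjusted p = 0.043), while ID2, of the same family, overlapped at 37.7, 22.6 and 17.4 in ISVZ 1 to 3, against 20.8, 10.9 and 13.8 in VZ 1 to 3 and was not called (log2 difference 0.71 ± 0.29 SE, adjusted p = 0.1598). In all 4 of 17 genes were called lower, and 2 each without VZ 2, ISVZ 1 and ISVZ 2 and with the 6 ISVZ and VZ libraries alone. Of the 17, 3 passed the filter only through VZ, 1 of them called, and the other 14 held 3 lower calls and a median of -0.45. In TGF-beta signalling the called genes were the latent TGF-beta binding protein genes LTBP3 (log2 difference -1.62 ± 0.24 SE, adjusted p = 0.00471), LTBP1 (-1.46) and LTBP4 (-0.57), 3 of 18, and 1 each without VZ 2, VZ 3, ISVZ 2 and ISVZ 3. Hedgehog signalling had 2 of 13 called, the coreceptor gene BOC (log2 difference -1.12 ± 0.26 SE, adjusted p = 0.0267) and the transcription factor gene GLI3 (log2 difference -1.06 ± 0.23 SE, adjusted p = 0.0189), 0 each without VZ 2, VZ 3, ISVZ 2 and ISVZ 3, and 1 with the 6 libraries alone. SMO, the signal transducer of that pathway, missed the threshold (log2 difference -0.64 ± 0.19 SE, adjusted p = 0.0559). NOG, ID4 and LTBP3 kept their calls without each library. The share called was 16.7% in the TGF-beta list and 15.4% in the hedgehog list, near the 11.3% of all genes.

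The Hippo pathway restrains the coactivators YAP1 and WWTR1, which switch on growth and matrix genes. Of 22 genes tested 8 were called lower, with a median of -0.43. Of the 22, 2 passed the filter only through VZ, 2 of them called, and the other 20 held 6 lower calls and a median of -0.37. YAP1 itself held 5.84, 3.37 and 6.15 scaled FPKM in ISVZ 1 to 3, against 10.6, 15.6 and 16.9 in VZ 1 to 3 (log2 difference -1.34 ± 0.22 SE, adjusted p = 0.00713). WWTR1 differed by -0.86 ± 0.19 (SE, adjusted p = 0.0191). CCN2, a secreted target of YAP1 (TSDBGID.20303, chromosome 4, 34701110 to 34703057), held 0.254, 0.404 and 0.541 scaled FPKM in ISVZ 1 to 3, against 6.81, 9.75 and 3.69 in VZ 1 to 3. Every ISVZ library was under 1 and every VZ library above 3, a difference of -2.39 ± 0.25 (SE, adjusted p = 0.00195), and CCN1, its relative, differed by -1.36 but passed the filter only through VZ. The regulators AJUBA and WWC1 differed by -1.81 ± 0.20 (SE, adjusted p = 0.00229) and -1.72 ± 0.24 (SE, adjusted p = 0.00423). TEAD2, a DNA-binding partner of YAP1, did not separate the layers, at 25.4, 19.2 and 23.5 in ISVZ 1 to 3, against 23.9, 24.96 and 23.8 in VZ 1 to 3. CCN2, AJUBA and WWC1 kept their calls without each library, and the list held 4 to 9 calls, with 4 without VZ 2 and 5 each without VZ 1, VZ 3 and ISVZ 2. CCN2 is also on the subplate list, as are MOXD1, a monooxygenase family gene (-1.28), and SCUBE1, a secreted protein gene (-1.04). They were its 3 calls of 10, all lower, while the subplate genes ST18 and NXPH4 overlapped (0.26 and 0.18). Without VZ 2, VZ 3 or ISVZ 2 the subplate list held 1 call, and without VZ 1 or ISVZ 3 it held 2.

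Apical junction and polarity genes, whose products ring the ventricular end feet of radial glia, were in part lower. Of 37 tested 13 were called lower and 1 higher, with a median of -0.36. CRB2, a Crumbs polarity protein gene, held 2.93, 1.01 and 1.94 scaled FPKM in ISVZ 1 to 3, against 5.36, 7.04 and 7.39 in VZ 1 to 3 (log2 difference -1.40 ± 0.21 SE, adjusted p = 0.00502). MSN, the membrane to actin linker moesin, held 24.6, 22.3 and 33.3 scaled FPKM in ISVZ 1 to 3, against 60.6, 63.2 and 61.3 in VZ 1 to 3 (log2 difference -1.20 ± 0.12 SE, adjusted p = 0.00195). PARD3B and the scaffold gene SLC9A3R1 differed by -1.13 ± 0.14 (SE, adjusted p = 0.00296) and -1.34 ± 0.20 (SE, adjusted p = 0.00502). CTNNA1, the alpha-catenin of adherens junctions (-0.95), and the tight junction scaffold gene TJP1 (-0.38) were lower as well. CDH2, the N-cadherin that holds these junctions together, held 33.1, 62.99 and 47.1 scaled FPKM in ISVZ 1 to 3, against 49.04, 58.4 and 50.1 in VZ 1 to 3, which overlap (log2 difference -0.18 ± 0.15 SE, adjusted p = 0.484). PRKCZ, atypical protein kinase C zeta, was the higher call, at 7.15, 7.08 and 5.49 in ISVZ 1 to 3, against 4.28, 4.45 and 4.52 in VZ 1 to 3 (log2 difference 0.48 ± 0.12 SE, adjusted p = 0.0371), and lost it in 10 of the 12 fits without a library. CRB2, MSN, PARD3B and SLC9A3R1 kept their calls in all 12. The list held 6 calls each without VZ 2 and ISVZ 2, 9 without VZ 3 and 7 with the 6 libraries alone.

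Actomyosin genes were also in part lower. Of 24 actomyosin genes 8 were called lower and 1 higher. TAGLN2, an actin-binding protein gene, held 31.6, 20.9 and 31.9 scaled FPKM in ISVZ 1 to 3, against 53.1, 69.6 and 61.7 in VZ 1 to 3 (log2 difference -1.11 ± 0.19 SE, adjusted p = 0.00807); the alpha-actinin gene ACTN1 (-0.91), PALLD (-0.88) and the filamin gene FLNA (-0.76) were also lower. MYH10, a nonmuscle myosin gene, held 33.4, 32.5 and 32.1 in ISVZ 1 to 3, against 29.97, 31.2 and 30.6 in VZ 1 to 3. TPM4, a tropomyosin gene, held 35.7, 42.3 and 58.3 in ISVZ 1 to 3, against 54.2, 50.04 and 55.6 in VZ 1 to 3; neither was called. ARHGEF2, a microtubule-bound activator of RHOA, was higher, at 6.41, 3.398 and 3.899 in ISVZ 1 to 3, against 2.73, 1.73 and 2.06 in VZ 1 to 3 (log2 difference 0.79 ± 0.12 SE, adjusted p = 0.00504), in each of the 12 fits without a library. The list held 1 call without VZ 2, 2 without ISVZ 2, 3 without VZ 3 and 6 to 10 otherwise, and 5 with the 6 ISVZ and VZ libraries alone. Of the 9 called, 1 passed the filter only through VZ. Genes linked to cortical folding and malformation, the subject of the study, were called at about the share of all genes, 12% against 11.3%. Of 25 tested, 1 was called higher, TUBB3, and 2 lower, FLNA and DAG1, the dystroglycan gene (log2 difference -0.90 ± 0.14 SE, adjusted p = 0.00588), with a median of -0.06, which turned to 0.03 with quantile normalisation. ADGRG1, an adhesion receptor gene mutated in human polymicrogyria, did not differ beyond the spread (log2 difference -0.23 ± 0.12 SE, adjusted p = 0.2802). The folding list held 1 call without VZ 2, 2 each without VZ 3, ISVZ 2 and OSVZ 1, and 5 without CP 3.

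Extracellular matrix genes were lower in ISVZ. Of 55 matrix and integrin genes 24 were called lower and 1 higher, with a median of -0.70. Of those 55, 12 passed the filter only through VZ, LAMB2, COL4A5 and COL4A6 below among them, and 9 of the 12 were among the lower calls. The filter favours lower genes among these 12, and the other 43 held 15 lower calls and a median of -0.47. The basement membrane genes COL4A5 and COL4A6 are neighbours (TSDBGID.1194, chromosome 3, 84527590 to 84677147, and TSDBGID.19712, chromosome 3, 84269316 to 84526566). COL4A5 held 0.728, 0.6401 and 0.632 scaled FPKM in ISVZ 1 to 3, against 2.64, 10.9 and 4.77 in VZ 1 to 3. COL4A6 held 0.351, 0.283 and 0.683 scaled FPKM in ISVZ 1 to 3, against 2.83, 10.3 and 4.59 in VZ 1 to 3, and VZ 2 was the highest for both. They differed by -1.92 ± 0.31 (SE, adjusted p = 0.00627) and -2.12 ± 0.29 (SE, adjusted p = 0.00428). The laminin gene LAMB2 held 1.79, 6.7e-05 and 0.223 in ISVZ 1 to 3, against 3.77, 9.42 and 6.73 in VZ 1 to 3, near 0 in ISVZ 2, and it overlaps USP19, so its level is uncertain (log2 difference -2.27 ± 0.39 SE, adjusted p = 0.00807). SPARC, a secreted matrix protein, held 27.8, 30.6 and 38.3 scaled FPKM in ISVZ 1 to 3, against 70.5, 143 and 75.7 in VZ 1 to 3 (log2 difference -1.49 ± 0.25 SE, adjusted p = 0.00692).

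Among integrins, receptors that tie cells to the matrix, 6 of 10 tested were called lower, and 0 higher. Beside ITGB5 these included ITGA6 at 5.46, 6.54 and 5.36 in ISVZ 1 to 3, against 11.5, 17.1 and 15.2 in VZ 1 to 3 (log2 difference -1.19 ± 0.19 SE, adjusted p = 0.00645) and ITGA7 (log2 difference -1.15 ± 0.19 SE, adjusted p = 0.00673). ITGB1, the shared beta subunit, lay lower in all ISVZ libraries at 63.7, 64.1 and 80.3 in ISVZ 1 to 3, against 88.3, 98.6 and 87.8 in VZ 1 to 3 but just missed the threshold (log2 difference -0.40 ± 0.11 SE, adjusted p = 0.0524). GPC2, a glypican of growing axons, was the matrix gene called higher, at 44.6, 46.1 and 36.05 in ISVZ 1 to 3, against 30.3, 21.6 and 19.9 in VZ 1 to 3 (log2 difference 0.81 ± 0.13 SE, adjusted p = 0.00543). Enzymes that remodel matrix and their inhibitors held 9 lower calls of 23. TIMP3, a matrix-bound metalloprotease inhibitor (TSDBGID.24484, chromosome 7, 114620929 to 114695636), held 8.42, 9.08 and 11.4 scaled FPKM in ISVZ 1 to 3, against 32.2, 45.5 and 39.3 in VZ 1 to 3, with no overlap (log2 difference -1.91 ± 0.25 SE, adjusted p = 0.00353). MMP2 and MMP17 differed by -1.45 and -1.60, and SERPINH1, the collagen chaperone, by -1.12 ± 0.18 (SE, adjusted p = 0.00627). COL4A5, ITGB5, ITGA6, ITGA7, LAMB2, GPC2, TIMP3 and SERPINH1 kept their calls without each library, COL4A6 fell below the filter without any VZ library, MMP2 lost its call without ISVZ 2 and MMP17, which passed the filter only through VZ, without VZ 2, VZ 3, ISVZ 2 or ISVZ 3. The matrix list held 10 calls without VZ 2, 11 without ISVZ 2 and 12 without VZ 3, with a median of -0.41 without VZ 2, and the enzyme list 4 without VZ 2, 3 without ISVZ 2 and 6 without ISVZ 1.

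Motile cilia genes, which build the beating axonemes of ependymal and choroid plexus cells, were lower in ISVZ and many were near 0 there. FOXJ1, the transcription factor that switches on motile cilia (TSDBGID.9691, chromosome 16, 48091653 to 48097894), held 0.517, 0.924 and 0.763 scaled FPKM in ISVZ 1 to 3, against 11.3, 43.4 and 19.96 in VZ 1 to 3. Every ISVZ library was under 1, and the VZ libraries differed among themselves with VZ 2 the highest (log2 difference -3.71 ± 0.30 SE, adjusted p = 0.00195). SPAG6, a central apparatus protein gene, held 0.0207, 0.238 and 0.139 scaled FPKM in ISVZ 1 to 3, against 2.38, 15.9 and 5.79 in VZ 1 to 3 (log2 difference -2.69 ± 0.39 SE, adjusted p = 0.00471). TPPP3, a tubulin-binding protein gene, held 5.92, 11.4 and 11.2 scaled FPKM in ISVZ 1 to 3, against 33.9, 124 and 74.6 in VZ 1 to 3, expressed in both layers and lower in ISVZ (log2 difference -2.76 ± 0.52 SE, adjusted p = 0.0112). The radial spoke gene RSPH1 (-2.42), FAM183A (-2.67), CAPSL (-2.56) and the axoneme genes CFAP45 (-2.39), CFAP52 (-1.75) and CFAP43 (-1.65) were lower as well. RFX3, a transcription factor that acts with FOXJ1, and DNAH7, a dynein heavy chain gene, were not called (-0.33 and 0.10).

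In all, 103 of 110 motile cilia genes were found in the tables and 57 of these were below the filter. Of the 46 tested 34 were called lower and 0 higher, with a median of -1.25. The filter favours lower genes here: 23 of the 46 passed only through VZ, and the other 23 held 15 lower calls and a median of -0.94. Without VZ 2, 30 members passed the filter and 10 were called, with a median of -0.78, and the counts were 14 without ISVZ 2, 14 without VZ 3 and 22 without VZ 1. FOXJ1, SPAG6, CAPSL, CFAP45 and CFAP52 fell below the filter without any VZ library, as did CFAP43, and TPPP3 lost its call without VZ 2 and FAM183A without ISVZ 2. Summed cilia genes were at 92.4, 109.8 and 113 in ISVZ 1 to 3, against 215, 551 and 336 in VZ 1 to 3.

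Primary cilium genes, whose products dividing cells use as well, held a smaller share of calls. Of 51 tested 10 were called lower, with a median of -0.24. BBS2 and TTC8, of the complex that carries cargo into cilia, were lower in all ISVZ libraries. BBS2 held 7.54, 7.41 and 8.05 scaled FPKM in ISVZ 1 to 3, against 12.4, 15.9 and 14.8 in VZ 1 to 3. TTC8 held 4.84, 4.26 and 4.63 scaled FPKM in ISVZ 1 to 3, against 6.695, 11.4 and 8.89 in VZ 1 to 3 (log2 differences -0.82 ± 0.10 SE, adjusted p = 0.00291, and -0.82 ± 0.16 SE, adjusted p = 0.0121). The kinesin motor genes KIF3A and KIFAP3 did not separate the layers (0.27 and -0.11). BBS2 kept its call without each library and TTC8 lost it without VZ 2 or ISVZ 2, where the list held 1 call each, as against 3 without VZ 3, 12 without VZ 1 and 6 each without ISVZ 1, ISVZ 3 and OSVZ 1. It held 2 with the 6 ISVZ and VZ libraries alone and 6 with quantile normalisation.

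Choroid plexus RNA was present in both layers and uneven between libraries. TTR, the thyroid hormone carrier that this epithelium secretes (TSDBGID.7781, chromosome 13, 44906375 to 44915797), held 14.8, 48.4 and 0.122 scaled FPKM in ISVZ 1 to 3, against 529, 2514 and 33.8 in VZ 1 to 3. VZ 2 was the highest, VZ 3 lay below ISVZ 2, and each ISVZ library lay below the VZ library of its own number (log2 difference -5.23 ± 0.77 SE, adjusted p = 0.0048). FOLR1, a folate receptor gene of the same epithelium, held 0.383, 1.08 and 0 scaled FPKM in ISVZ 1 to 3, against 8.93, 69.7 and 2.05 in VZ 1 to 3 (log2 difference -3.18 ± 0.71 SE, adjusted p = 0.0218). AQP1, its water channel, held 0.406, 1.01 and 0.636 scaled FPKM in ISVZ 1 to 3, against 8.76, 31.01 and 0.815 in VZ 1 to 3 without passing (log2 difference -2.31 ± 0.65 SE, adjusted p = 0.0502). CLIC6, a chloride channel family gene of this epithelium, stayed below the filter at 0.398, 0.868 and 0.0137 in ISVZ 1 to 3, against 8.85, 49.2 and 0.357 in VZ 1 to 3, so it was above 1 in VZ 1 and VZ 2 only. Of 13 genes tested 6 were called lower, 4 passed the filter only through VZ with 3 of them among the calls, and the summed level was 121, 144 and 121 in ISVZ 1 to 3, against 708, 2947 and 233 in VZ 1 to 3. The sums also count members that did not separate the layers, such as CHMP1A, at 39.5, 34.4 and 35.8 in ISVZ 1 to 3, against 35.8, 37.55 and 40.98 in VZ 1 to 3. In ISVZ 3 the sum was 121 with TTR at 0.122, so the sum is no measure of plexus RNA there. TTR kept its call without each library, FOLR1 lost it without ISVZ 1 or ISVZ 2 and ENPP2, an enzyme that makes lysophosphatidic acid (-2.41), without ISVZ 2. The list held 2 calls without ISVZ 2 and 4 without ISVZ 1. This RNA was highest in VZ 2, the library with the most cilia RNA, and its part in the other differences was not tested beyond the values without that library.

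Ependymal and astrocyte genes were lower in ISVZ. Of 15 ependymal genes 12 were called lower (8 without VZ 2), with a median of -1.89 (-1.71 without VZ 2), and of 20 astrocyte genes 17 (9 each without VZ 2 and ISVZ 2), with a median of -1.52 (-1.31 without VZ 2). GJA1, the gap junction protein connexin 43 (TSDBGID.20944, chromosome 4, 45181726 to 45192198), held 7.56, 13.7 and 22.4 scaled FPKM in ISVZ 1 to 3, against 77.99, 98.7 and 70.3 in VZ 1 to 3. The lowest VZ library had over 3 times the level of the highest ISVZ library (log2 difference -2.52 ± 0.35 SE, adjusted p = 0.00417). CD9, a tetraspanin (TSDBGID.24086, chromosome 7, 34674240 to 34714728), held 4.02, 5.31 and 6.42 scaled FPKM in ISVZ 1 to 3, against 31.5, 75.1 and 33.5 in VZ 1 to 3 (log2 difference -2.83 ± 0.29 SE, adjusted p = 0.00195). MLC1, a membrane protein of astrocyte end feet, held 7.83, 5.67 and 6.34 scaled FPKM in ISVZ 1 to 3, against 25.4, 36.6 and 31.7 in VZ 1 to 3 (log2 difference -2.08 ± 0.18 SE, adjusted p = 0.00195). AQP4, their water channel, held 1.68, 5.25 and 3.83 scaled FPKM in ISVZ 1 to 3, against 12.5, 27.7 and 19.8 in VZ 1 to 3 (log2 difference -2.21 ± 0.50 SE, adjusted p = 0.0224).

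S100B, a calcium-binding protein of glia, held 19.7, 31.01 and 50.5 scaled FPKM in ISVZ 1 to 3, against 97.95, 142 and 158 in VZ 1 to 3 (log2 difference -2.01 ± 0.33 SE, adjusted p = 0.00686). GFAP, the astrocyte filament, was at 3.17, 2.33 and 3.94 in ISVZ 1 to 3, against 4.404, 10.8 and 19.02 in VZ 1 to 3 (log2 difference -1.41 ± 0.29 SE, adjusted p = 0.0158), far below VIM in both layers. APOE and SPARCL1, also astrocyte genes, lay lower in all ISVZ libraries without passing, at -1.68 ± 0.53 (SE, adjusted p = 0.0763) and -1.38 ± 0.40 (SE, adjusted p = 0.0559). NNAT, on the ependymal list, was abundant in both layers and overlapped, at 1315, 2173 and 1853 in ISVZ 1 to 3, against 1760, 1269 and 951 in VZ 1 to 3. GJA1, CD9, MLC1, S100B, CLU and PLTP, a lipid transfer protein gene on the ependymal list (-2.89), kept their calls without each library, and AQP4 lost it without VZ 1, VZ 2 or any ISVZ library. GJA1, CLU, SLC1A3, VIM, S100B and AQP4 stand on 2 or more of the lists, so the radial glia, ependymal and astrocyte counts are not separate. Of the ependymal calls 2 and of the astrocyte calls 1 passed the filter only through VZ.

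Metabolic genes split by isoform and step. In glycolysis 6 of 20 were called lower and 2 higher. ALDOC, the glial aldolase, held 13.9, 16.4 and 15.6 scaled FPKM in ISVZ 1 to 3, against 36.3, 70.8 and 40.4 in VZ 1 to 3 (log2 difference -1.56 ± 0.27 SE, adjusted p = 0.00815). LDHA, which makes lactate, held 86.5, 77.9 and 105 scaled FPKM in ISVZ 1 to 3, against 163, 166 and 193 in VZ 1 to 3 (log2 difference -0.95 ± 0.14 SE, adjusted p = 0.00455). GPI, an early enzyme of the pathway, did not separate the layers (log2 difference -0.12 ± 0.12 SE, adjusted p = 0.565). ENO2, the neuronal enolase, had the largest positive difference of the genes called, at 5.104, 12.3 and 9.1 scaled FPKM in ISVZ 1 to 3, against 8.5e-06, 5.2e-05 and 0.0255 in VZ 1 to 3 (log2 difference 3.21 ± 0.32 SE, adjusted p = 0.00195). It is listed near 0 in VZ and its gene overlaps ATN1, at 24.5, so its level is uncertain, and its difference depends on the pseudocount. PFKFB4, a regulator of glycolysis, was the other higher call (0.43). ALDOC, LDHA and ENO2 kept their calls without each library, and the glycolysis list held 4 each without VZ 2, VZ 3 and ISVZ 2.

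In amino acid handling, PSAT1, a serine synthesis enzyme, held 75.5, 51.2 and 98.03 scaled FPKM in ISVZ 1 to 3, against 158, 169 and 222 in VZ 1 to 3 (log2 difference -1.31 ± 0.22 SE, adjusted p = 0.00713), and the other serine synthesis genes PHGDH and PSPH were lower too (-0.82 and -0.57). The cationic amino acid transporter gene SLC7A2 differed by -1.52 ± 0.17 (SE, adjusted p = 0.00243). SLC38A1, a glutamine transporter of neurons, was higher at 19.3, 20.8 and 18.5 in ISVZ 1 to 3, against 15.4, 11.8 and 14.5 in VZ 1 to 3 (log2 difference 0.47 ± 0.12 SE, adjusted p = 0.0405), but lost its call in 8 of the 12 fits without a library. In all 10 of 23 were lower and 1 higher (3 calls without VZ 2, 4 without ISVZ 2, 7 without VZ 3 and 4 with the 6 libraries alone), and 1 of the lower ones passed the filter only through VZ. In cholesterol synthesis 7 of 22 were lower, with HMGCS1, an early enzyme, at 89.4, 72.9 and 73.2 in ISVZ 1 to 3, against 139.8, 142 and 117 in VZ 1 to 3 (log2 difference -0.75 ± 0.13 SE, adjusted p = 0.00792), while SQLE, a later enzyme, was not called (-0.18). That list held 2 calls without VZ 2, 1 without ISVZ 2, 3 without VZ 3, 4 without ISVZ 3, 12 without ISVZ 1 and 4 with the 6 libraries alone. In lipid and retinoid handling 11 of 26 were lower, such as ACSBG1, which activates long-chain fatty acids (log2 difference -1.31 ± 0.22 SE, adjusted p = 0.00713). RARB, a retinoic acid receptor gene, was the 1 higher call (1.35), in a gene that overlaps TOP2B at 94.5, so it is uncertain. The list held 4 calls without VZ 2, 5 without ISVZ 2 and 7 each without VZ 3 and ISVZ 1, and 2 of its lower calls passed the filter only through VZ.

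Among regional transcription factors 8 of 27 were lower and 1 higher. The lower ones included OTX2, a factor of the choroid plexus and midline at 0.218, 1.01 and 1.899 in ISVZ 1 to 3, against 4.09, 26.99 and 6.76 in VZ 1 to 3 (log2 difference -2.43 ± 0.47 SE, adjusted p = 0.01296), DMRT3, which is graded across the mouse cortex (log2 difference -1.49 ± 0.29 SE, adjusted p = 0.01196), and ZIC2, a midline factor (-1.24). TCF4, a basic helix-loop-helix factor, was higher (0.41). OTX2 lost its call without ISVZ 2, DMRT3 lost it without ISVZ 2 and fell below the filter without any VZ library, and ZIC2 and TCF4 lost theirs in 8 and 9 of the 12 fits. The list held 1 call without ISVZ 2, 2 without VZ 2, 3 without VZ 3, 5 without OSVZ 1 and 6 each without ISVZ 3 and CP 1. It held 5 without the replicate block, and 5 with the 6 libraries alone. OTX2 and DMRT3 passed the filter only through VZ.

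Lists of cells that enter the cortex from elsewhere, or of its vessels and coverings, held 0 to 2 calls each. The lists with a call had 10% to 16.7% of members called, near the 11.3% of all genes tested. Of 19 interneuron genes limma called 0 (0 at an unadjusted p under 0.05), and 1 with the 6 ISVZ and VZ libraries alone. The interneuron factor gene DLX1 held 44.7, 175 and 156 scaled FPKM in ISVZ 1 to 3, against 109.7, 141 and 83.2 in VZ 1 to 3, with ISVZ 1 far below the other ISVZ libraries, and the summed list was at 276, 775 and 731 in ISVZ 1 to 3, against 487, 576 and 412 in VZ 1 to 3. OLIG2, a factor of oligodendrocyte precursors and ventral progenitors, held 19.8, 16.2 and 21.6 in ISVZ 1 to 3, against 15.4, 18.6 and 18.8 in VZ 1 to 3, and of 8 precursor genes 0 were called (1 at an unadjusted p under 0.05). Among subpallial progenitor genes EBF1 was called higher, at 4.25, 6.13 and 8.73 in ISVZ 1 to 3, against 2.198, 1.101 and 3.63 in VZ 1 to 3 (log2 difference 1.18 ± 0.30 SE, adjusted p = 0.0334), and lost its call without each of the 6 ISVZ and VZ libraries, while MEIS2 was not called at 100.2, 99.1 and 102 in ISVZ 1 to 3, against 85.05, 49.3 and 65.8 in VZ 1 to 3. Of 10 microglia genes 1 was called lower, the complement gene C1QC (log2 difference -1.17 ± 0.24 SE, adjusted p = 0.0156), while its partner C1QB overlapped at 6.59, 4.78 and 3.16 in ISVZ 1 to 3, against 5.86, 8.22 and 7.13 in VZ 1 to 3. Of 13 vascular genes the 2 called, NOTCH3 and PDGFRB, were lower. CLDN5, a tight junction gene of vessels, held 8.78, 7.17 and 7.66 in ISVZ 1 to 3, against 7.03, 6.84 and 7.62 in VZ 1 to 3. PECAM1, an endothelial adhesion gene, held 5.397, 3.398 and 5.397 in ISVZ 1 to 3, against 5.61, 4.38 and 4.32 in VZ 1 to 3; both overlapped. The 2 red cell genes tested, AHSP and ALAS2, were not called (0 at an unadjusted p under 0.05), and of 6 meninges genes PTGDS was lower (-1.83), with overlap. PTGDS was not called without the replicate block, with the 6 libraries alone or with quantile normalisation, and EBF1 not without the block. Without VZ 2 none of these 7 lists held a call (0 each).

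Of 12 stress genes tested 3 were called, 25% against 11.3% of all genes, and 1 without VZ 2. HSPA5, the chaperone of the endoplasmic reticulum, and DDIT4, a brake on TOR signalling, were lower (log2 differences -0.71 ± 0.12 SE, adjusted p = 0.00727, and -0.80 ± 0.12 SE, adjusted p = 0.00487). DUSP1, an immediate early phosphatase gene, was higher (log2 difference 0.48 ± 0.10 SE, adjusted p = 0.0155). Of 13 antigen presentation and interferon genes 3 were lower, IFITM2, CD74 and TAP1 (-1.08, -0.78 and -0.53), with 0 calls without VZ 2, VZ 3 or ISVZ 2 and 1 each without ISVZ 3, OSVZ 1 and CP 2, without the replicate block, with the 6 libraries alone and with quantile normalisation. CD74 passed the filter only through VZ. HSPA5 lost its call without VZ 2, and DUSP1 without VZ 2, VZ 3 or ISVZ 2.

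Across 93 gene families with 5 or more members tested, grouped by symbol, the highest shares of called members were mostly of lower genes. Of 5 S100 genes 4 were called, with S100A6 at 3.99, 5.49 and 7.19 in ISVZ 1 to 3, against 8.62, 15.1 and 15.7 in VZ 1 to 3 (log2 difference -1.09 ± 0.21 SE, adjusted p = 0.0115) and S100A11 (-1.29) beside S100B. Annexins, which bind membranes in the presence of calcium, had 4 of 7 called lower, such as ANXA5 at 7.89, 8.13 and 9.26 in ISVZ 1 to 3, against 16.4, 35.9 and 24.7 in VZ 1 to 3 (log2 difference -1.44 ± 0.18 SE, adjusted p = 0.00324) and ANXA2 (-1.80). Together the annexin and S100 list had 9 of 14 lower, 5 without VZ 2 and 3 without ISVZ 2, and ANXA2 passed the filter only through VZ. Matrix metalloproteases and the HES and HEY genes also had 4 of 7, integrins 6 of 10, cilia and flagella associated proteins 7 of 13, and tetraspanins 9 of 19 lower with TSPAN33 (log2 difference -1.65 ± 0.24 SE, adjusted p = 0.00471) and CD82 (-1.30), and 1 higher, TSPAN13 (0.54). ATPase ion pumps had 4 of 8, Frizzled receptors 4 of 8, and the lysosomal cathepsins 4 of 9, of which CTSZ differed by -0.98 ± 0.15 (SE, adjusted p = 0.00559) and CTSH, which passed the filter only through VZ, by -1.90. Stathmins and dihydropyrimidinase-like proteins, which regulate microtubules in growing axons, reached the same share as cathepsins with 4 of 9, all higher. Over all genes tested the share was 11.3%.

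**Figure D4:**
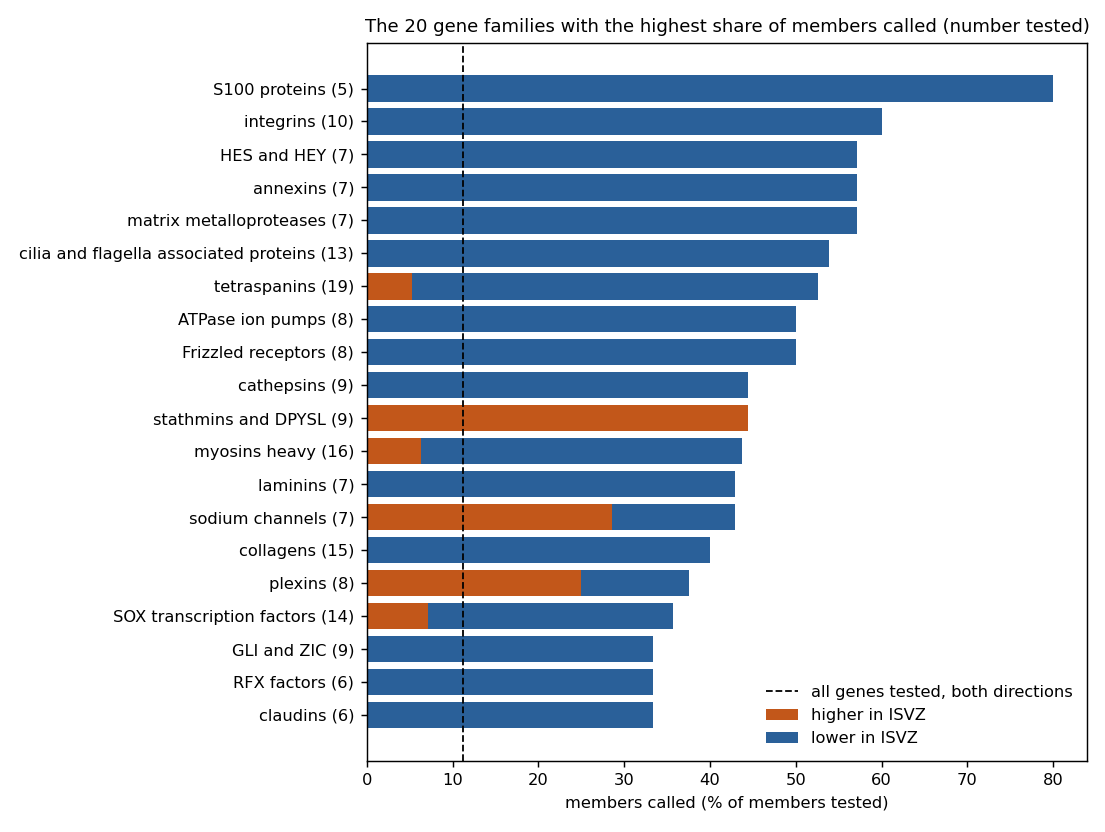
Bars give the percentage of tested members called in the 20 families with the highest share, split into higher (orange) and lower (blue) in ISVZ; the dashed line marks the 11.3% of all genes tested. Integrins reach 60.0% and S100 proteins 80.0%, all lower, and stathmins with DPYSL are the family with the highest share of higher calls.

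Several families stood below that share. Limma called 0 of 36 complex I subunits (1 at an unadjusted p under 0.05) and 0 of 34 proteasome subunits (1). It also called 0 of 9 MCM helicase genes (1), 0 of 16 centromere proteins (1) and 0 of 19 protocadherins (3). In a family of 9 genes, 0 calls is close to the 11.3% of all genes. Whether the larger families differ from that share was not tested. Below 0 lay 8 of the 9 MCM genes and 14 of the 16 centromere genes. Of 60 mitochondrial ribosomal proteins 1 was called, lower, and of 213 ZNF zinc finger genes 4 were higher and 2 lower. Solute carriers stood above it, with 5 higher and 25 lower of 205 (14.6%). Below it again were annotated copies, whose reads may be divided with their parent gene, with 37 higher and 91 lower of 1833 (6.98% called), antisense transcripts 15 and 62 of 1158 (6.65%) and intergenic noncoding loci 16 and 28 of 528 (8.33%).

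The largest single differences not yet described were mixed in kind. PDE10A, a phosphodiesterase of cyclic nucleotides (TSDBGID.20210, chromosome 4, 2509907 to 2563724), held 8.23, 6.79 and 5.65 scaled FPKM in ISVZ 1 to 3, against 1.83, 1.61 and 3.69 in VZ 1 to 3 (log2 difference 1.26 ± 0.22 SE, adjusted p = 0.00801). ISLR2, a membrane protein gene of growing axons, held 64.8, 36.7 and 35.5 scaled FPKM in ISVZ 1 to 3, against 23.8, 10.2 and 23.99 in VZ 1 to 3 (log2 difference 1.23 ± 0.23 SE, adjusted p = 0.01099). Both lay higher in all ISVZ libraries and lost their calls without VZ 2 or ISVZ 2, as did C1QTNF4, a secreted protein gene (1.14). H2AW, a histone gene, differed by 1.41 ± 0.25 (SE, adjusted p = 0.00922), but overlaps H2BU1 at 49.8, and B3GALT6 (1.65) was listed near 0 in VZ 2 and VZ 3 and overlaps SDF4, so both are uncertain. TFF3 (1.15) and LRATD1 (1.12) lost their calls without 8 and 6 of the libraries. CD24li1, an annotated copy of CD24, was higher (1.14), and overlaps an intergenic noncoding locus at 224, so its level is uncertain.

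Among genes lower in ISVZ, CRYAB, a small heat shock protein, held 0.498, 1.15 and 2.21 scaled FPKM in ISVZ 1 to 3, against 7.65, 15.4 and 15.9 in VZ 1 to 3, in a clear separation that held without each library (log2 difference -2.62 ± 0.30 SE, adjusted p = 0.00243). ECRG4, a secreted peptide gene (-2.97), and CA3, a carbonic anhydrase gene (-2.49), were highest in VZ 2 and, within VZ, lowest in VZ 3. ECRG4 held 0.265, 0.935 and 0.187 in ISVZ 1 to 3, against 11.4, 45.6 and 1.44 in VZ 1 to 3. CA3 held 2.699, 3.03 and 1.26 in ISVZ 1 to 3, against 14.7, 77.5 and 3.85 in VZ 1 to 3. SPEF1li1, an annotated copy of a cilia gene, was lower at -2.43. ECRG4 and SPEF1li1 passed the filter only through VZ.

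Reads in overlapping genes cannot be assigned with certainty where the strand used in counting is not given. Beside the cases above, genes named here whose overlapping neighbour had the higher level (the higher of its ISVZ and VZ means) were LFNG (TTYH3, 84.6 scaled FPKM), WWC1 (RARS1, 27.8), DKK3 (USP47, 38.4), FOLR1 (ANAPC15li1, 65.2), CRYAB (DLAT, 14.2) and ARHGEF2 (SSR2, 15.3). The same held for CNTN2, PRKCZ, MMP17, CTSZ, C1QC, CD74, DNAH7, NR2E1, WWTR1, PSPH, AHSP, ALAS2, CLDN5 and PECAM1, and, with noncoding or antisense loci, for OTX2, GLI3, DAG1, PLXNA4, PTGDS, NRP1 and MAP2. Their levels and differences are uncertain to that extent.

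The last comparison asked whether any gene stood apart in ISVZ from the mean of its neighbours, VZ below and OSVZ above. Limma called 0 of 14101 genes (0%), with 1986 at an unadjusted p under 0.05 and a smallest adjusted p of 0.0946, shared by ANKS1B, AIG1 and CCN2. Without ISVZ 1, 29 genes were called, and 2 without ISVZ 3. The mean level in OSVZ lay further in the same direction for 274 of the 371 genes higher in ISVZ and for 818 of the 1217 lower; since these calls and the OSVZ difference share ISVZ, that count is a description only.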

How the data were processed

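Per the labels, 12 libraries of laser-captured fetal cortex layers were sequenced, 3 each of ISVZ, VZ, OSVZ and cortical plate, numbered 1 to 3 in the titles. The authors deposited 1 table of FPKM per library. The submitters' processing notes name HISAT2 and Cufflinks. The build, tool versions, annotation and strand setting were not given in the sources used here. The label's day 37 was used, although the tables are named for another day.

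FPKM of entries with 1 gene ID was summed (360 of 81418 IDs had several), 4 IDs marked as failed were left out, and each library was scaled by its median ratio to the geometric mean profile (factors 0.947 to 1.06). Read totals are unknown, so no counting interval is given; the median half-width of the deposited bounds was 7.52% to 12.6% of the value. Genes at 1 or more scaled FPKM in at least 3 of 12 libraries entered a limma model (limma 3.58.1, R 4.3.3) on log2(scaled FPKM + 1), with layer and replicate number as terms over all 12 libraries and 6 residual degrees of freedom. P-values are two-sided and adjusted by Benjamini-Hochberg over all 14101 genes, with a threshold of 0.05. Log2 differences are on this scale and understate the change of low genes. The replicate number was used as a block because the rule set for the comparison asked for it. Deviations from the layer means correlated weakly between ISVZ and VZ libraries of the same number (0.202, 0.172 and 0.217). Between those of different numbers the correlations were -0.249 to 0.074. The script was tested on simulated data.

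Alternatives were no replicate block, the 6 libraries alone, other scalings, another pseudocount, other filters and leaving out libraries. Gene lists, families and alternatives were chosen with earlier results of these data known. Genes were named by size among those called (the 15 most positive and 15 most negative log2 differences without overlap between layers, up to 4 called members a list, up to 2 other members of highest level, members called against their list, and up to 3 members of the 10 families with the highest share called); other called list members, and genes used to check the layers, were chosen after their values were seen. Coordinates are as the tables give them, counted from 1. Some results that the naming rule would have given are not reported here.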

Additional observations from a re-analysis of the deposited data

How the results depend on the processing

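Among the 223 named genes, no call changed direction under any alternative run. For the other called genes, a change of direction was not told apart from a gene no longer tested. Without the replicate block 1229 genes were called, 217 higher and 1012 lower. The 6 ISVZ and VZ libraries alone, with the replicate block, gave 865 (148 and 717). Quantile normalisation gave 611 higher genes. A filter of 5 gave 1022 (680 lower) and no filter 730 (104 and 626), over fewer and more genes tested. Without VZ 2 and ISVZ 2 together 80 were called (4 and 76), and without VZ 1 and VZ 2 together limma called 0 (0 and 0), with 1580 at an unadjusted p under 0.05. Chosen after seeing the data, leaving out VZ 2 without the replicate block gave 389 (29 and 360), and leaving out VZ 1 and VZ 2 without it 71 (1 and 70). Leaving out each library in turn gave 378 to 1735 calls, 29 to 444 higher and 349 to 1291 lower; the fewest came without VZ 2. For ISVZ against the mean of VZ and OSVZ, no filter gave 2 calls and leaving out each library 0 to 29. The cause of these shifts was not tested. Of 145 named genes called, 50 kept their call without each of the 12 libraries. Of the named genes not called, sign changes numbered 55 over all alternatives. Read depth is unknown, and genes near 1 scaled FPKM are the least precise.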

Other observations

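Groups noticed after the values were seen are given as values only. Of 17 neuronal RNA-binding protein genes tested, 6 were called higher in ISVZ and 0 lower, with a median log2 difference of 0.47. CELF5, a regulator of splicing and translation, held 15.8, 10.1 and 14.3 scaled FPKM in ISVZ 1 to 3, against 8.72, 3.44 and 6.19 in VZ 1 to 3 (log2 difference 1.06 ± 0.19 SE, adjusted p = 0.00922). RBFOX2, a splicing factor, held 87.8, 97.9 and 74.8 scaled FPKM in ISVZ 1 to 3, against 62.4, 42.9 and 47.8 in VZ 1 to 3 (log2 difference 0.76 ± 0.13 SE, adjusted p = 0.00775), and neither gene overlapped between the layers. CELF3, RBFOX1, SRRM4 and KHDRBS2 were the others called. Of 4 sodium channel alpha subunit genes 2 were higher, SCN3A (0.90) and SCN8A (0.47). In the whole sodium channel family 2 were higher and 1 lower of 7 tested. Potassium channel genes had 1 higher and 2 lower of 53, and calcium channel genes 1 higher and 0 lower of 19. GABA-A and nicotinic receptor subunit genes had 3 higher and 0 lower of 16. Over all genes tested 2.63% were called higher and 8.63% lower.

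Small heat shock proteins were lower, 4 of 5 tested, with a median of -1.20. Beside CRYAB these were HSPB6, at 1.18, 1.66 and 1.86 in ISVZ 1 to 3, against 4.71, 5.74 and 4.25 in VZ 1 to 3, HSPB1 and HSPB8. HSPB6 overlaps LIN37, which had the higher level, so its own level is uncertain. Among detoxifying enzymes 4 of 11 glutathione transferase genes, 3 of 10 aldehyde dehydrogenase genes and 5 of 16 epoxide hydrolase and cytochrome P450 genes were lower. ALDH9A1 held 5.78, 6.93 and 7.95 scaled FPKM in ISVZ 1 to 3, against 14.8, 30.1 and 24.5 in VZ 1 to 3 (log2 difference -1.57 ± 0.16 SE, adjusted p = 0.00195). EPHX2, a lipid epoxide hydrolase, held 3.31, 4.73 and 5.17 scaled FPKM in ISVZ 1 to 3, against 11.9, 20.9 and 15 in VZ 1 to 3 (log2 difference -1.63 ± 0.16 SE, adjusted p = 0.00195). KCNJ10, the potassium channel of glia, held 4.49, 3.94 and 5.196 scaled FPKM in ISVZ 1 to 3, against 14.9, 17.6 and 20.6 in VZ 1 to 3 (log2 difference -1.75 ± 0.22 SE, adjusted p = 0.00312).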
